A study of Mus musculus with 6 samples.

Results

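The genes of eicosanoid synthesis were read in neutrophils isolated from mouse dura mater, a layer of the meninges. The 10 genes were taken as a list of leukotriene and prostanoid synthesis genes, by matching the deposited Ensembl identifiers to mouse symbols. The list was chosen with earlier results of these data known. All 10 were found among 21955 identifiers. Poly-A RNA was sequenced from 6 libraries of wild-type (WT) mice, 3 labelled female and 3 labelled male, all taken after social threat exposure. The labels give no strain, age, sorting gate or number of animals per library, and no unexposed mice were analysed here. The design compares the libraries by their sex label after the exposure. Because nothing says that libraries came from separate animals, p-values measure only the spread between libraries, which may be technical.

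Eicosanoids are short-lived lipid signals made from arachidonic acid. A phospholipase frees arachidonic acid from membranes, and the acid then enters the lipoxygenase branch, which makes leukotrienes, or the cyclooxygenase branch, which makes prostaglandins and thromboxane. Neutrophils are known as strong makers of leukotriene B4, a chemoattractant that they also sense, and they induce cyclooxygenase when activated.

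The libraries held between 17098026 and 20778410 counts over genes. Levels are given as CPM, counts scaled to the size of the library, after TMM normalization, which corrects for differences in composition. The Y-linked genes Ddx3y, Eif2s3y, Kdm5d and Uty summed to between 312 and 328 CPM in the female-labelled libraries and between 307 and 318 CPM in the male-labelled libraries. These Y-linked levels go against the label female, and the groups are named by label throughout, so that a direction is a difference between libraries so labelled. Female replicate 3 stood apart from the others of its label, with a chi-square per degree of freedom of 13.4 and 16.5 against them, where those differed from each other by 5.14. Mitochondrially encoded genes took 6.42% to 8.49% of counts in the female-labelled libraries and 10.7% to 13.1% in the male-labelled libraries, and their part in the differences was tested only by leaving them out of the library sizes, which changed no call of the 9 genes tested. Neutrophil markers were abundant, with 9 of 10 matched and a sum between 51816 and 66475 CPM in the female-labelled libraries and between 45593 and 50319 CPM in the male-labelled libraries. S100a9, Ngp and S100a8 were the highest of these, at means over all libraries of 17360, 17320 and 11070 CPM, and Ly6g the lowest, at 202 CPM. Markers of other cells were also detected and are given below, so the levels need not be those of neutrophils alone.

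Of the 10 genes, 9 had enough counts to be tested. Ptgs2, Pla2g7, Pla2g4a and Alox5ap were higher in the female-labelled libraries, and none of the 9 was lower by edgeR's quasi-likelihood test at an adjusted p under 0.05. Over all 11903 genes tested 7.29% were higher and 6.62% lower by the same rule. The differences were small: the fold change of the 4 genes lay between 1.19 and 1.58. In 4 of the 9 genes each library labelled female lay above each library labelled male, and in 1 gene each lay below. Over all genes tested these shares were 15.9% and 15.0%. The median log2 difference of the 9 genes was 0.18, beside 0.0016 over all genes tested. DESeq2 and limma-voom also called 4 genes higher and 0 lower, and at an unadjusted p under 0.05 1 of the 9 was lower by edgeR. At an adjusted p under 0.01, Ptgs2 and Pla2g7 were the 2 genes higher, beside 3.44% of all genes, and 0 were lower, beside 3.44%. In bulk RNA, fewer cells of a type and less RNA per cell cannot be told apart.

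**Figure D1:**
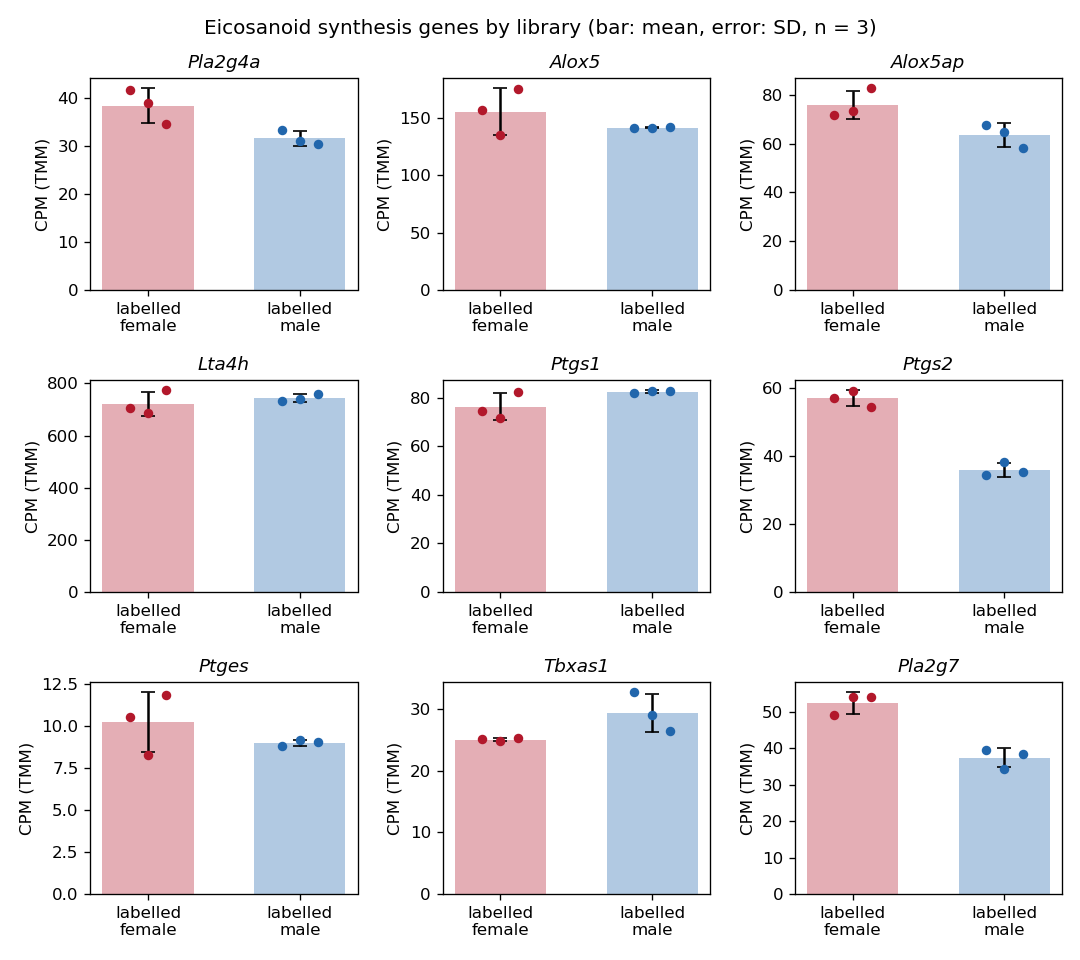
Level of each tested gene in CPM after TMM scaling (vertical axis, from 0) in the 3 libraries labelled female and the 3 labelled male. Points are libraries, bars means and error bars SD. The points of the label groups do not overlap for Pla2g4a, Alox5ap, Ptgs2, Pla2g7 and Tbxas1, and Tbxas1 is the gene of these whose libraries labelled female lie below.

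**Figure D2:**
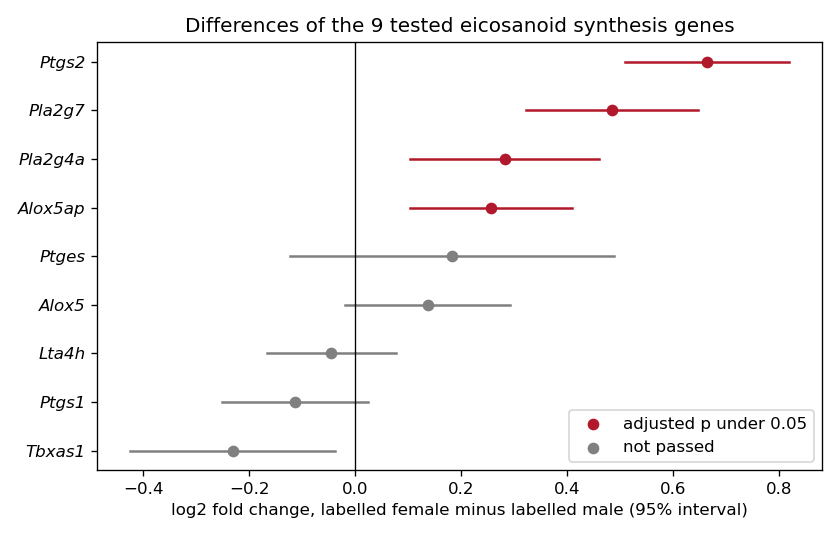
Log2 fold change (horizontal axis, labelled female minus labelled male) with its 95% interval for each of the 9 tested genes. The intervals of Ptgs2, Pla2g7, Pla2g4a and Alox5ap lie above 0, and that of Tbxas1, which did not pass after adjustment, lies below 0.

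Pla2g4a (ENSMUSG00000056220, chromosome 1) encodes cytosolic phospholipase A2 alpha, which frees arachidonic acid for both branches. Its level was 41.6, 39.0 and 34.6 CPM in the female-labelled libraries, against 33.3, 31.1 and 30.3 CPM in the male-labelled libraries. Every library labelled female was above every library labelled male, the nearest by less than the SD of either group. Pla2g4a averaged 38.4 ± 3.57 CPM in the female-labelled libraries and 31.6 ± 1.53 CPM in the male-labelled libraries (SD, n = 3 each). The difference was 1.22-fold (log2 0.28, SE 0.086, adjusted p = 0.0320 by edgeR). The call was lost without female replicate 1 or 2 or without male replicate 1, 2 or 3 (adjusted p between 0.0508 and 0.153 by edgeR), while the log2 difference stayed between 0.22 and 0.35 over all alternatives.

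The lipoxygenase branch was represented by 4 genes. Alox5 (ENSMUSG00000025701, chromosome 6), the lipoxygenase that makes leukotriene A4, had 156.2, 134.6 and 174.7 CPM in the female-labelled libraries and 140.9, 141.2 and 141.4 CPM in the male-labelled libraries. The female-labelled libraries spread to both sides of those labelled male, which lay within 1 CPM of each other. The difference did not pass the test (log2 0.14, 95% interval -0.02 to 0.29, adjusted p = 0.2465 by edgeR). Without female replicate 2, Alox5 passed as higher, with a log2 difference of 0.23 and adjusted p = 0.0376 by edgeR, and without female replicate 3 its log2 difference was 0.04.

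Alox5ap (ENSMUSG00000060063, chromosome 5) encodes the membrane protein that presents arachidonic acid to the lipoxygenase. It had 71.7, 73.3 and 82.5 CPM in the female-labelled libraries and 67.55, 64.8 and 58.1 CPM in the male-labelled libraries. The groups did not overlap, although the gap between the nearest libraries was smaller than the SD of either group. The means were 75.85 ± 5.84 CPM in the female-labelled libraries and 63.5 ± 4.84 CPM in the male-labelled libraries (SD, n = 3 each). The gene was 1.19-fold higher in the female-labelled libraries (log2 0.26, SE 0.074, adjusted p = 0.0235 by edgeR). Leaving out male replicate 2 or 3 ended this call (adjusted p = 0.0612 and 0.163 by edgeR). An annotated antisense gene, Gm19719, overlaps its exons, and no strand-marking step is named in the library protocol, so reads of the overlap cannot be assigned.

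Lta4h (ENSMUSG00000015889, chromosome 10), the hydrolase that turns leukotriene A4 into leukotriene B4, was the gene with the highest count of the list. Its level was 706, 686 and 773 CPM in the female-labelled libraries and 733, 739 and 761 CPM in the male-labelled libraries. The groups overlapped, and the difference did not pass (log2 -0.05, 95% interval -0.17 to 0.08, adjusted p = 0.672 by edgeR). As a fold change, this interval runs between 0.89 and 1.06.

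Ltc4s (ENSMUSG00000020377, chromosome 11), the synthase of leukotriene C4, was at the limit of detection: 1 count was found in female replicate 2, and 0 in each of the other 5. A count of 0 allows up to 3 counts, which is 0.149 to 0.179 CPM in these libraries, a limit that covers counting error only. The gene was not tested, and no fold is given. An annotated antisense gene, Gm26542, overlaps exons of Ltc4s, with the same limit on strand as for Alox5ap. Mgst2, a microsomal glutathione transferase that can also conjugate leukotriene A4, had 124 ± 17.4 CPM in the female-labelled libraries and 123 ± 6.22 CPM in the male-labelled libraries (SD, n = 3 each), with a log2 difference of 0.01 (95% interval -0.15 to 0.18) that did not pass (adjusted p = 0.936 by edgeR).

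Of the cyclooxygenase genes, Ptgs2 was higher and Ptgs1 did not pass. Ptgs2 (ENSMUSG00000032487, chromosome 1) encodes the inducible cyclooxygenase. It had 57.1, 59.2 and 54.5 CPM in the female-labelled libraries and 34.3, 38.2 and 35.3 CPM in the male-labelled libraries. The gap between the groups was wider than the whole range within either. Means were 56.9 ± 2.34 CPM in the female-labelled libraries and 35.9 ± 1.99 CPM in the male-labelled libraries (SD, n = 3 each). This was the largest difference among the 9 tested genes, at 1.58-fold (log2 0.66, SE 0.074, 95% interval 0.51 to 0.82, adjusted p = 2.33e-06 by edgeR). It passed under all 15 alternatives, with a log2 difference between 0.63 and 0.71.

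Ptgs1 (ENSMUSG00000047250, chromosome 2) encodes the constitutive cyclooxygenase, best known from platelets. It had 74.4, 71.7 and 82.4 CPM in the female-labelled libraries and 81.8, 82.6 and 82.7 CPM in the male-labelled libraries. Only female replicate 3 reached the libraries labelled male, and the difference did not pass (log2 -0.11, 95% interval -0.25 to 0.02, adjusted p = 0.279 by edgeR). Without female replicate 3, Ptgs1 passed as lower, with a log2 difference of -0.17 and adjusted p = 0.0364 by edgeR. An unclassified gene, Gm43621, is annotated over its exons on the opposite strand. The intervals of Ptgs2 and Ptgs1 do not overlap. A difference between these changes was not tested.

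The start regions of these paralogs and of Pla2g4a, the protein-coding gene next to Ptgs2 on chromosome 1 in the RefSeq annotation, are shown because Ptgs2 and Pla2g4a were higher and Ptgs1 was not. Sequences are from RefSeq (GRCm38.p6, an older build than that of the counts), from 250 bases before to 25 after the annotated start, 5′ to 3′ on the gene's strand. Capitals mark matches on either strand to the motifs searched, given below.
Ptgs2, chr1:150099781-150100055, + strand: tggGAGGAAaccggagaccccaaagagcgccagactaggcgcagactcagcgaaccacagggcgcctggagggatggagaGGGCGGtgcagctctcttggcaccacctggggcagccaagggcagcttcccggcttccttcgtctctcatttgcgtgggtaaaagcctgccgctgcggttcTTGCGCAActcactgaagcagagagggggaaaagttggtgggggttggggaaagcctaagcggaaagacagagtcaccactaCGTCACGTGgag
Pla2g4a, chr1:149961266-149961540, - strand: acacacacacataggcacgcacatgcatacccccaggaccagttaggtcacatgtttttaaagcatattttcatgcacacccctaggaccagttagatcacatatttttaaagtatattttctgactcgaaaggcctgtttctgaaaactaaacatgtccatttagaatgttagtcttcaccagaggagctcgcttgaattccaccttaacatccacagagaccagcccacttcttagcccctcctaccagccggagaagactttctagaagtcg
Ptgs1, chr2:36230176-36230450, + strand: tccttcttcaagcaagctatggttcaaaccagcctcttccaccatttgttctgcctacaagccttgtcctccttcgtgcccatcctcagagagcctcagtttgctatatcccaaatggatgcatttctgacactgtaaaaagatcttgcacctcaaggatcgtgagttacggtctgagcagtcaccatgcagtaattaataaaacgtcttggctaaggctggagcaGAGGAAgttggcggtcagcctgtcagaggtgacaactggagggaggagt

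The Ptgs2 window held 5 of the 9 motifs. These were a C/EBP match (TTGCNNAA), an ETS family match (GAGGAA) and a GC box (GGGCGG). The others were the core of a cyclic AMP response element (TGACG) and an E-box (CACGTG), which overlap. Among all 32851 RefSeq windows of this length, 10.2% held the C/EBP letters, 25.5% the ETS letters GAGGAA and 34.4% the GC box. The cyclic AMP core was held by 19.7% and the E-box by 6.68%. The Ptgs1 window held the ETS letters GAGGAA alone, and the Pla2g4a window shown held none of the 9 runs of letters searched. RefSeq gives Pla2g4a another start, whose window (chr1:149922415-149922689, - strand) is not shown and held a TATA box match on the reverse strand (TTTATA). The TATA box (TATAAA, 13% of all windows), the AP-1 site (TGANTCA, 7.35%), the interferon-stimulated response element (GAAA, NN and GAAA in a row, 3.25%) and the NF-kB consensus (4.19%) were not found in the 3 windows shown. A match is a run of letters and not a measured site. Windows were found for 9 of the 10 genes, and Alox5ap had no entry.

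The terminal prostanoid synthases did not pass. Ptges (ENSMUSG00000050737, chromosome 2), the inducible prostaglandin E synthase, had 10.5, 8.32 and 11.9 CPM in the female-labelled libraries and 8.81, 9.18 and 9.05 CPM in the male-labelled libraries. Its libraries labelled female lay on both sides of the others (log2 0.18, 95% interval -0.12 to 0.49, adjusted p = 0.453 by edgeR). Tbxas1 (ENSMUSG00000029925, chromosome 6), the thromboxane synthase of platelets and macrophages, had 25.1, 24.75 and 25.3 CPM in the female-labelled libraries and 32.7, 29.0 and 26.5 CPM in the male-labelled libraries. All libraries labelled female lay below all those labelled male, by a margin of little more than 1 CPM at the nearest. The log2 difference was -0.23 (95% interval -0.42 to -0.04) and did not pass after adjustment (adjusted p = 0.1065 by edgeR), nor under any of the 15 alternatives. An antisense gene, Gm42962, overlaps exons of Tbxas1, with the same limit on strand as for Alox5ap.

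Pla2g7 (ENSMUSG00000023913, chromosome 17) encodes a secreted acetylhydrolase that inactivates platelet-activating factor, a lipid mediator related to but distinct from eicosanoids, so it stands in the list as an enzyme of lipid mediators and not of eicosanoid synthesis itself. It had 48.9, 54.0 and 54.0 CPM in the female-labelled libraries and 39.4, 34.3 and 38.4 CPM in the male-labelled libraries. The groups were apart by more than the SD of either. Pla2g7 was 1.40-fold higher in the female-labelled libraries (log2 0.48, SE 0.078, 95% interval 0.32 to 0.65, adjusted p = 0.000202 by edgeR). It passed under all 15 alternatives, with a log2 difference between 0.43 and 0.53. An antisense gene, 1700071M16Rik, overlaps its exons.

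Levels of different genes were compared per kilobase of merged exon length, as CPM per kb. Lta4h was highest, at 118 ± 7.46 CPM per kb in the female-labelled libraries and 122 ± 2.41 CPM per kb in the male-labelled libraries. Alox5ap followed with 53.4 ± 4.11 and then Alox5 with 37.8 ± 4.89 CPM per kb in the female-labelled libraries, against 44.7 ± 3.41 and 34.4 ± 0.0668 CPM per kb in the male-labelled libraries (SD, n = 3 each). The 3 genes that lead from arachidonic acid to leukotriene B4 were thus the top 3 of the list by level. Ptgs1 had 19.6 ± 1.43 CPM per kb in the female-labelled libraries and 21.2 ± 0.126 in the male-labelled libraries. Pla2g7 had 18.0 ± 1.01 CPM per kb in the female-labelled libraries and 12.9 ± 0.928 in the male-labelled libraries. Ptgs2 had 12.4 ± 0.511 CPM per kb in the female-labelled libraries and 7.84 ± 0.435 in the male-labelled libraries, below Ptgs1 in either group. Next came Pla2g4a, Tbxas1 and Ptges, and Ltc4s was last. Each gene was above the next in this order in all 6 libraries, except that Ptgs1 was above Pla2g7 in 5 of 6 and Tbxas1 above Ptges in 5 of 6. The ranges of these neighbours overlapped in the female-labelled libraries and were separate in the male-labelled libraries. The lengths come from an annotation of an older build and merge all isoforms, which lowers the value of a gene whose long isoforms are not used.

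The genes also varied within the groups. The coefficient of variation among libraries labelled female was 17.45% for Ptges and 12.9% for Alox5, against 2.10% and 0.178% among those labelled male. Tbxas1 went the other way, at 1.18% among libraries labelled female and 10.6% among those labelled male, as did Ptgs2, at 4.11% among libraries labelled female and 5.55% among those labelled male, and Pla2g7, at 5.58% among libraries labelled female and 7.21% among those labelled male. Of the 9 tested genes, 4 were highest in the library labelled female replicate 3 and 5 were lowest in female replicate 2. Neutrophil markers, summed, were also highest in female replicate 3, at 66475 CPM, and were 51816 CPM, the lowest of the label, in female replicate 2. Their part in the spread was not tested.

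Other genes of the pathway were taken from lists by role, and these lists too were chosen with earlier results of these data known. Of 90 genes listed 89 were matched and 61 tested, of which 5 were higher and 1 lower, beside the 7.29% and 6.62% of all genes. The median log2 difference of the 61 was 0.01.

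Among genes that inactivate, convert or export eicosanoids, 2 of 10 tested were higher and 1 lower. Ggt5, a gamma-glutamyl transferase that turns leukotriene C4 into leukotriene D4, had 18.25, 17.1 and 19.7 CPM in the female-labelled libraries and 11.1, 9.18 and 10.9 CPM in the male-labelled libraries. This was a difference of 1.77-fold (log2 0.82, SE 0.12, adjusted p = 7.05e-05 by edgeR). The Ggt5 difference was larger than that of any of the 9 tested genes of the main list. Cyp4f18, which inactivates leukotriene B4 in mouse neutrophils by oxidation, had 63.5, 66.6 and 76.8 CPM in the female-labelled libraries and 54.9, 48.2 and 55.8 CPM in the male-labelled libraries (1.30-fold, adjusted p = 0.00259 by edgeR). Abcc1, an exporter of leukotriene C4, had 49.1, 51.2 and 48.4 CPM in the female-labelled libraries and 55.6, 60.3 and 61.95 CPM in the male-labelled libraries. It was lower (log2 -0.26, adjusted p = 0.0166 by edgeR), but not once male replicate 2 or 3 was left out (adjusted p = 0.0786 and 0.103). Ptgr1, which acts on prostaglandins and leukotriene B4, was the most abundant gene of this group by CPM, at 99.7 ± 7.08 CPM in the female-labelled libraries and 104.4 ± 4.798 CPM in the male-labelled libraries, and did not pass (log2 -0.07).

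Lpcat2, an enzyme that makes platelet-activating factor in inflammatory cells, was the gene that passed among 7 tested for that lipid. It had 66.0, 64.6 and 74.1 CPM in the female-labelled libraries and 53.15, 46.0 and 56.1 CPM in the male-labelled libraries (1.32-fold, adjusted p = 0.00166 by edgeR). Both Lpcat2, which makes platelet-activating factor, and Pla2g7, which breaks it down, were higher. Its receptor Ptafr had a log2 difference of 0.13 and did not pass (adjusted p = 0.276 by edgeR), and Pafah1b1, the most abundant gene of the group by CPM, had 0.08.

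Of 17 tested genes of arachidonate release and reacylation, Mgll alone passed as higher (log2 0.37, adjusted p = 0.0347 by edgeR). It encodes monoacylglycerol lipase, which frees arachidonic acid from an endocannabinoid, and had 24.4 ± 2.07 CPM in the female-labelled libraries and 18.9 ± 2.93 CPM in the male-labelled libraries (SD, n = 3 each). Without female replicate 1 or 3 or male replicate 2 or 3 it did not pass (adjusted p between 0.0562 and 0.197 by edgeR). Acsl1, an acyl-CoA synthetase and the most abundant of the group by CPM, had a log2 difference of -0.05 and did not pass. Among 9 tested genes of other synthases Mgst1, a microsomal glutathione transferase, was higher, with 250.1 ± 23.8 CPM in the female-labelled libraries and 210.4 ± 10.98 CPM in the male-labelled libraries (log2 0.25, adjusted p = 0.0169 by edgeR). Without male replicate 1 or 2 it did not pass (adjusted p = 0.0757 and 0.108 by edgeR).

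None of the 7 tested genes of other lipoxygenases and their partners passed by edgeR, DESeq2 or limma-voom, and 1 did so at an unadjusted p under 0.05 by edgeR. Cotl1, an actin-binding protein known to bind the lipoxygenase, was the most abundant of them by CPM and had a log2 difference of 0.03. None of the 11 tested eicosanoid receptor genes passed by any of these tools, and 0 did so at an unadjusted p under 0.05. Ltb4r1, the high-affinity receptor of leukotriene B4, had 149.2 ± 18.6 CPM in the female-labelled libraries and 147.4 ± 7.06 CPM in the male-labelled libraries (log2 0.02, 95% interval -0.14 to 0.17).

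**Figure D3:**
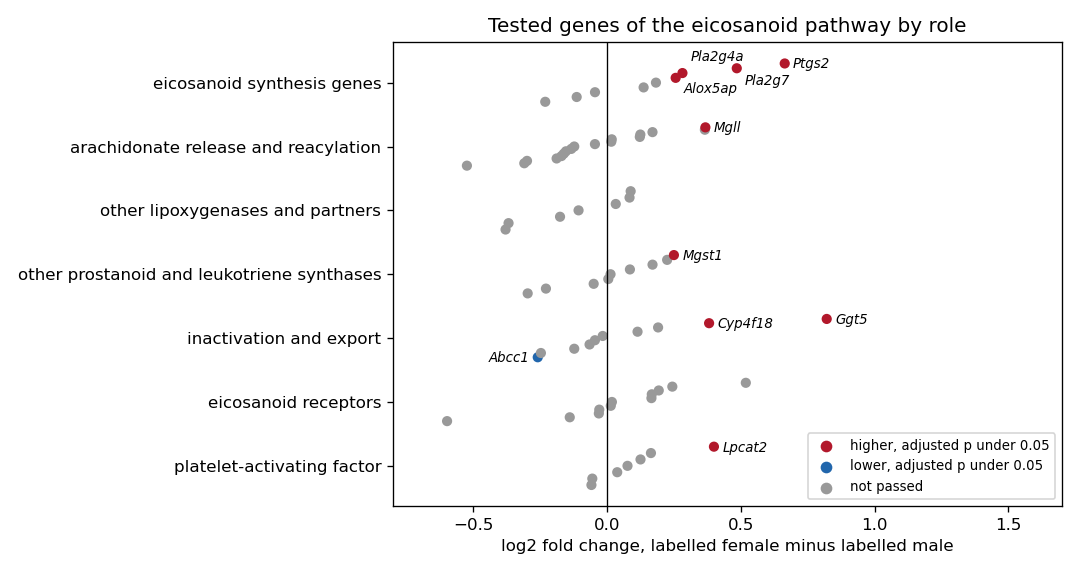
Log2 fold change (horizontal axis, labelled female minus labelled male) of each tested gene, in rows by role. Coloured and named points passed at an adjusted p under 0.05, and Ggt5 at 0.82 and Ptgs2 at 0.66 lie farthest to the right of these.

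Cells other than neutrophils also use these genes, so their markers were read in the same libraries. Platelet markers summed to between 82.0 and 88.0 CPM in the female-labelled libraries and between 82.8 and 92.0 CPM in the male-labelled libraries. Of 13 listed, 0 of the 8 tested passed by edgeR, DESeq2 or limma-voom, and 0 at an unadjusted p under 0.05. Gp1bb was at 0 in every library, and Itgb3, which other leukocytes also express, made up most of the sum, with 50.5 ± 3.53 CPM in the female-labelled libraries and 51.6 ± 1.67 CPM in the male-labelled libraries (SD, n = 3 each).

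Mast cell and basophil markers summed to between 313 and 352 CPM in the female-labelled libraries and between 332 and 374 CPM in the male-labelled libraries. Of 12 listed and 7 tested, 0 passed by edgeR or limma-voom, while 1 was lower by DESeq2 and 1 at an unadjusted p under 0.05 by edgeR. The mast cell proteases Mcpt4, Tpsb2 and Tpsab1 and the receptor Mrgprb2 were at 0 in every library. Cma1 had 1 to 6 counts per library, and the 7 tested genes were detected in every library. Among these, Cpa3 averaged 36.1 CPM in the female-labelled libraries and 35.8 CPM in the male-labelled libraries, and Kit 66.6 and 69.7 CPM. The basophil protease Mcpt8 had 159.5 ± 7.84 CPM in the female-labelled libraries and 181 ± 10.1 CPM in the male-labelled libraries, with adjusted p = 0.0538 by edgeR.

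Macrophage markers summed to between 439 and 472 CPM in the female-labelled libraries and between 453 and 478 CPM in the male-labelled libraries. Of 12 listed and 11 tested, 1 was higher (Adgre1) and 1 lower (Fcgr1), beside 7.29% and 6.62% of all genes. Folr2 was at 0, and Csf1r, the most abundant, did not pass (log2 -0.02). The monocyte sum was between 4287 and 4756 CPM in the female-labelled libraries and between 4010 and 4163 CPM in the male-labelled libraries. Of the monocyte markers 3 of 6 were higher, beside 7.29% of all genes, although Fn1, the most abundant, was not (log2 -0.05). Neutrophil markers were higher in 7 of 9, beside 7.29% of all genes, and the median log2 difference of the 9 was 0.49. The 7 had log2 differences between 0.25 and 1.25, and S100a9, the most abundant, had 0.28.

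B cell markers were lower in 6 of 8, beside 6.62% of all genes. Their sum was between 156 and 215 CPM in the female-labelled libraries and between 255 and 318 CPM in the male-labelled libraries. Dendritic cell markers were lower in 5 of 9, beside the same 6.62% of all genes. Their sum was between 212 and 218 CPM in the female-labelled libraries and between 306 and 323 CPM in the male-labelled libraries. Siglech, the most abundant, had a log2 difference of -0.63. Of 6 eosinophil, 3 endothelial and 3 fibroblast and meningeal markers tested, 0 passed by edgeR, DESeq2 or limma-voom. At an unadjusted p under 0.05 by edgeR, 2 eosinophil markers were higher and 1 lower. By that rule 3 endothelial markers were lower, with a median log2 difference of -0.49, and 0 fibroblast and meningeal markers passed. The share of all genes at this unadjusted threshold is not given here. The most abundant genes of the eosinophil, endothelial and fibroblast lists, Prg2, Pecam1 and Col1a1, had log2 differences of -0.06, -0.20 and -0.19. The part of these cells in the differences of the eicosanoid genes was not tested.

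**Figure D4:**
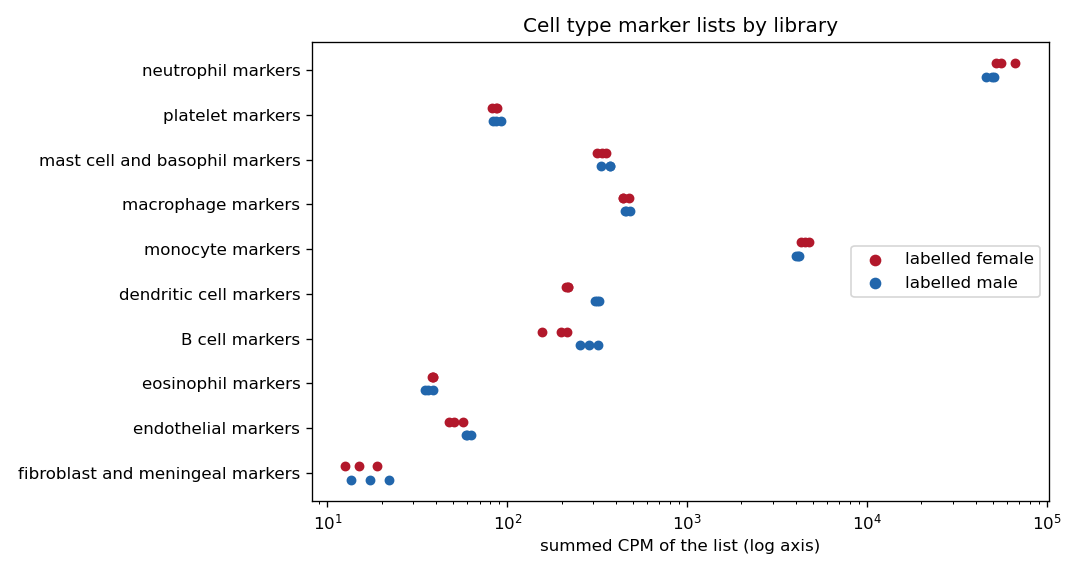
Summed level of each cell type marker list in CPM (horizontal log axis), with 1 point per library and the libraries labelled female drawn above those labelled male. Neutrophil and monocyte sums of all libraries labelled female lie above those of all labelled male, and the dendritic cell, B cell and endothelial sums lie below.

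For each of the 4 higher genes, the genes most alike over the 6 libraries were listed by Pearson's r of log2 CPM, as a description. The label groups do not overlap for these 4 genes, so r carries the difference between the groups. Ptgs2 was most alike to Pknox1, Car2 and Cdk4, Pla2g4a to Arl14ep, Mlec and Creb1, Pla2g7 to Wars, Marcks and Timm8a1, and Alox5ap to Frg1, Tpd52l2 and Ran. All 12 values of r lay between 0.982 and 0.999, and the 12 genes had log2 differences between 0.08 and 0.48.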

How the data were processed

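The authors deposited raw counts per Ensembl gene for each library. Per the submitters' processing notes, cutadapt 1.15, HISAT2 2.0.5 and the build GRCm39 were used; the counting tool and its strand setting are not given in the labels. Chromosomes and exon lengths came from GENCODE M21 (GRCm38). Symbols came from a separate reference list of gene names, which named 21847 of 21955 identifiers. Totals of 17098026 to 20778410 counts per library set the precision. The 3 female-labelled and 3 male-labelled libraries were compared with edgeR 4.0.16 in R 4.3.3: TMM, filterByExpr with a minimum count of 10, the quasi-likelihood test, and Benjamini-Hochberg adjustment over all 11903 genes tested, at 0.05. Alternatives used DESeq2 1.42.0, limma-voom 3.58.1, other normalizations and filters, an adjusted p of 0.01, each library left out, and a replicate block. The fit was tested on simulated data.

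The genes and lists were chosen with earlier results of these data known. Named were the 10 genes, up to 4 called genes and the most abundant gene per pathway role, the most abundant gene per marker list (1 of these is not reported here), the 4 Y-linked genes, and the 3 genes most alike to each called gene. Mgst2, Ptafr, Adgre1, Fcgr1, Cma1, Cpa3, Kit, Ngp, S100a8, Ly6g and markers at 0 were named after their values were seen. Oxer1 and Cxcr2 were not analysed here.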

Additional observations from a re-analysis of the deposited data

How the results depend on the processing

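Under other normalizations, DESeq2, limma-voom, other filters and without mitochondrially encoded genes, 4 genes were higher and 0 lower, as in the result reported; the filter of 10 CPM left Ptges untested. An adjusted p of 0.01 left 2 genes higher, with 3 higher and 0 lower among the other pathway genes, and 410 higher and 410 lower among all genes. Leaving out 1 library gave 2 to 4 genes higher and 0 to 1 lower, where 2 higher came without male replicate 2 or 3 and 1 lower (Ptgs1) without female replicate 3. The other pathway genes then gave 3 to 6 higher and 0 to 3 lower, with 3 lower without female replicate 3 and 0 lower without male replicate 2 or 3. All genes gave 439 to 1439 higher and 467 to 1269 lower, lowest without male replicate 3 and highest without female replicate 3, against 868 and 788 with all libraries. The cause was not tested. No log2 difference of the 9 genes, or of the 6 other pathway genes that passed, changed sign under these alternatives.

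The replicate numbers did not pair the libraries: deviations of same-numbered libraries correlated at -0.04, 0.06 and 0.06. With the replicate block, 4 of the 9 genes were higher and 0 lower, 5 other pathway genes were higher and 1 lower, and all genes gave 1007 higher and 914 lower. Ltc4s had too few counts to be tested, and the cause was not tested.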
